A study of Homo sapiens with 11 samples.

Results

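The genes described here are 54 genes of ribosome biogenesis, measured in SK-N-BE(2)-C cells, an established human neuroblastoma cell line with amplified *MYCN*. They were chosen by name and not by a threshold on their values, with earlier results of these data known, and fall into RNA polymerase I and its regulators (9 genes), box C/D snoRNP proteins (3), box H/ACA snoRNP proteins (4), small subunit factors (17), large subunit factors (15) and nucleolar proteins of several roles (6). Of the 54 genes, 50 had a named probe on the array and 44 were tested, out of 10323 genes tested in all. Cells received 500 nM vorinostat, a broad-spectrum inhibitor of histone deacetylases, or the solvent DMSO. The 4 groups were vorinostat 24 h (3 arrays), DMSO 24 h (3 arrays), vorinostat 6 d (2 arrays, replicates 2 and 3) and DMSO 6 d (3 arrays), each array holding RNA of one culture of this single cell line. The vorinostat 24 h arrays and the DMSO 24 h arrays lay on separate chips, so chip and treatment cannot be told apart at 24 h, while both 6 d groups shared a chip. The methods describe independent experiments for the 24 h treatment, and for the 6 d samples nothing in the sources used here says how the cultures were related.

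Ribosome biogenesis starts in the nucleolus, where RNA polymerase I transcribes the long precursor of the ribosomal RNAs. Small nucleolar ribonucleoproteins (snoRNPs) then modify this RNA, those of the box C/D class by methylation of riboses and those of the box H/ACA class by conversion of uridine to pseudouridine. Assembly factors fold and cleave the precursor into a small and a large subunit, and the MYC family of transcription factors, to which MYCN belongs, is a known activator of many genes of this process through the E-box CACGTG.

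Of the 54 genes, *WDR43*, *EBNA1BP2*, *DDX18* and *GNL3* had no named probe in the annotation used here. *POLR1A*, *TCOF1*, *MYBBP1A*, *UTP20*, *PWP2* and *NPM1* had probes that did not pass the filter on dim values, and for *POLR1A*, which encodes the largest subunit of polymerase I, the only probe was detected on 1 of 11 arrays. The 44 tested genes were measured by probes that were detected on all 11 arrays, so none entered through only one group. Levels are normalized intensities on the log2 scale, and a fold change is their difference between groups.

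For 17 of the 46 genes with a promoter window in the RefSeq table (GRCh38.p14, 300 bases, of which 250 lie before the start of the gene and 50 after it), the window held CACGTG, which reads the same on both strands. This was 37.0% of their windows, against 26.5% of the 102 windows of other ribosome biogenesis genes, 10.8% of the 8356 windows of genes tested on the arrays and 7.43% of the windows of all 27305 genes in the table. Small subunit factors held it in 9 of 16 windows, large subunit factors in 5 of 12 and RNA polymerase I and its regulators in 1 of 7. Box C/D proteins held it in 1 of 2 windows, box H/ACA proteins in 1 of 4 and nucleolar proteins of several roles in 0 of 5. Of the 19 matches in the 54 genes, 13 began after the start of the gene, against 249 of 2255 matches in all windows. The following windows belong to 4 genes that were lower with vorinostat at 24 h and show how close to the start the match lay. Each runs from 120 bases before the start to 30 bases after it, 5′ to 3′ on the strand of the gene, with CACGTG in capitals.
NOP14 promoter, chr4:2963377-2963526, minus strand: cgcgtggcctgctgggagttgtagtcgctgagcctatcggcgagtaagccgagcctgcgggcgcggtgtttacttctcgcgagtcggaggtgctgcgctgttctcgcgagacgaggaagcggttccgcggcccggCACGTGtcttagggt
RRP9 promoter, chr3:51941875-51942024, minus strand: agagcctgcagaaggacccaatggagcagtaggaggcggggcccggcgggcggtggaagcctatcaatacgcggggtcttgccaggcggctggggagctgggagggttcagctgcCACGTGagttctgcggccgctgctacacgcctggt
MRTO4 promoter, chr1:19251685-19251834, plus strand: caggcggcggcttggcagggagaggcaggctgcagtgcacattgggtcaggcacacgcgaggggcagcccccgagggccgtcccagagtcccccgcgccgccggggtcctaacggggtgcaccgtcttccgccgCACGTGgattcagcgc
PES1 promoter, chr22:30591881-30592030, minus strand: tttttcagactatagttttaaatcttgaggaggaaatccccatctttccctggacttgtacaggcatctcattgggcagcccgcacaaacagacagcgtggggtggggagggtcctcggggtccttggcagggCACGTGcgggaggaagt
The match began at base 16 of *NOP14*, base 15 of *MRTO4* and base 14 of *PES1*, counted from 1 at the start, and 5 bases before the start of *RRP9*. Further matches among genes lower at 24 h began at base 29 of *BYSL* and base 36 of *NOP2*. The genes lower with vorinostat at 24 h held a match in 6 of 15 windows and the tested genes that did not pass in 5 of 22. *NOP10*, the only gene that rose, held 2 matches, at -170 and -11 from the start. The windows of *POLR1C*, *NOP56*, *EMG1* and *LYAR*, which were also lower, held none. A match describes these letters in these windows and shows no binding.

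Raw intensity averaged 401 to 413 on the vorinostat 24 h arrays and 272 to 302 on the DMSO 24 h arrays, and it was 283 and 338 on the vorinostat 6 d arrays, against 323 to 383 on the DMSO 6 d arrays. Between 15947 and 18696 of 48107 probes were detected per array. The vorinostat 24 h and the DMSO 6 d arrays were all brighter than the DMSO 24 h arrays, against which more of the 44 genes were lower than higher. At 6 d the ranges of both treatments overlapped. The part of this brightness in the results was not tested beyond a fit with the mean log2 raw intensity of each array as a covariate, given below. Of 8 noradrenergic neuroblastoma markers, 7 were tested, with a summed normalized intensity of 30636 to 32079 with vorinostat and 27622 to 29896 with DMSO at 24 h, and *MYCN* differed by 0.20 on the log2 scale (adjusted p = 0.062 by limma). *MYCN* was the brightest of the 7, at 14.12 to 14.47 at 24 h, and so weighed most in this sum. Of these 7, *TH* (-1.04, adjusted p = 0.00267) and *DBH* (-0.49, adjusted p = 0.0127), enzymes of noradrenaline synthesis, fell at 24 h, while under scaling by the median of all probes they differed by -0.32 and 0.13. *DBH* rose at 6 d by 1.18 (adjusted p = 3e-04) and had -1.37 in DMSO 6 d against DMSO 24 h (adjusted p = 3.7e-06). Of 6 mesenchymal markers, *VIM* and *SNAI2* were tested, and their sum was 3312 to 3793 with vorinostat and 1318 to 1766 with DMSO at 24 h, and 1148 to 1442 with vorinostat and 1063 to 1205 with DMSO at 6 d. At 24 h *VIM*, the brighter gene, rose by 1.27 (adjusted p = 3.12e-06 by limma), while 0.23 for *SNAI2* did not pass (adjusted p = 0.584). *PRRX1*, *FN1*, *COL1A1* and *COL3A1* and the Schwann cell markers *S100B*, *SOX10* and *ERBB3* did not pass the filter. The 6 proliferation markers summed to 9397 to 10936 with vorinostat and 9243 to 9984 with DMSO at 24 h, and to 8521 to 8715 with vorinostat and 7310 to 9407 with DMSO at 6 d. At 24 h *TOP2A*, the brightest of the 6 on the vorinostat arrays, rose by 0.39. The other 5 did not pass, with -0.27 to -0.01, so the sum followed *TOP2A* and not most of the markers. At 6 d *PCNA* and *BIRC5* rose by 0.37 and 0.51 and 4 did not pass. Between the solvent groups *PCNA*, *MCM2*, *CCNB1* and *BIRC5* were lower in DMSO 6 d, with -0.37 to -0.64, against -0.04, 0.07, 0.02 and -0.18 in the same order when arrays were scaled by the median of all probes. What part these markers had in the results below was not tested.

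After 24 h of vorinostat, 16 of the 44 tested genes fell and 1 rose, *NOP10*, while 27 did not pass (limma, Benjamini-Hochberg adjusted p under 0.05 over all genes tested). Of all 10323 genes, 11.1% were lower and 16.5% were higher by the same rule. The genes that fell took part in both subunits of the ribosome, with the largest changes in *RRP9*, *NOP14* and *RRP12* of the small subunit and *MRTO4*, *PES1* and *NOP2* of the large subunit. The median log2 fold change of the 44 genes was -0.26, against 0.04 for all genes. It was 0.42 when arrays were scaled by the median of all probes, which turned the direction and moved the median of all genes to 0.66, so that the 44 genes lay 0.24 below all genes there and 0.30 below them in the main analysis. The vorinostat and DMSO arrays did not overlap for 22 genes that were lower on each vorinostat array (20.3% of all genes) and 1 that was higher (26.2%). Without vorinostat 24 h replicate 2 the count that fell was 6 (6.44% of all genes), and without DMSO 24 h replicate 1 it was 8 (7.86%). The call of *NOP10* was lost without DMSO 24 h replicate 2 or 3 or vorinostat 24 h replicate 1 or 2. The replicate numbers were taken to pair the arrays at 24 h, from correlations of 0.109 to 0.246 in these same data. With them as a block 19 genes fell and 2 rose (13.6% and 18.9% of all genes), among them all 17 called without it. With array brightness as a covariate none of the 44 genes passed, and of all genes 3 were lower and 46 higher. In that fit the median of the 44 genes was -0.16, against 0.02 for all genes. The covariate was the mean log2 raw intensity of all probes of an array. Mean raw intensity did not overlap between the treatments at 24 h. Median raw intensity was 108 to 110 with vorinostat and 106 to 108 with DMSO. How far the fit can tell brightness from treatment was not tested.

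**Figure D1:**
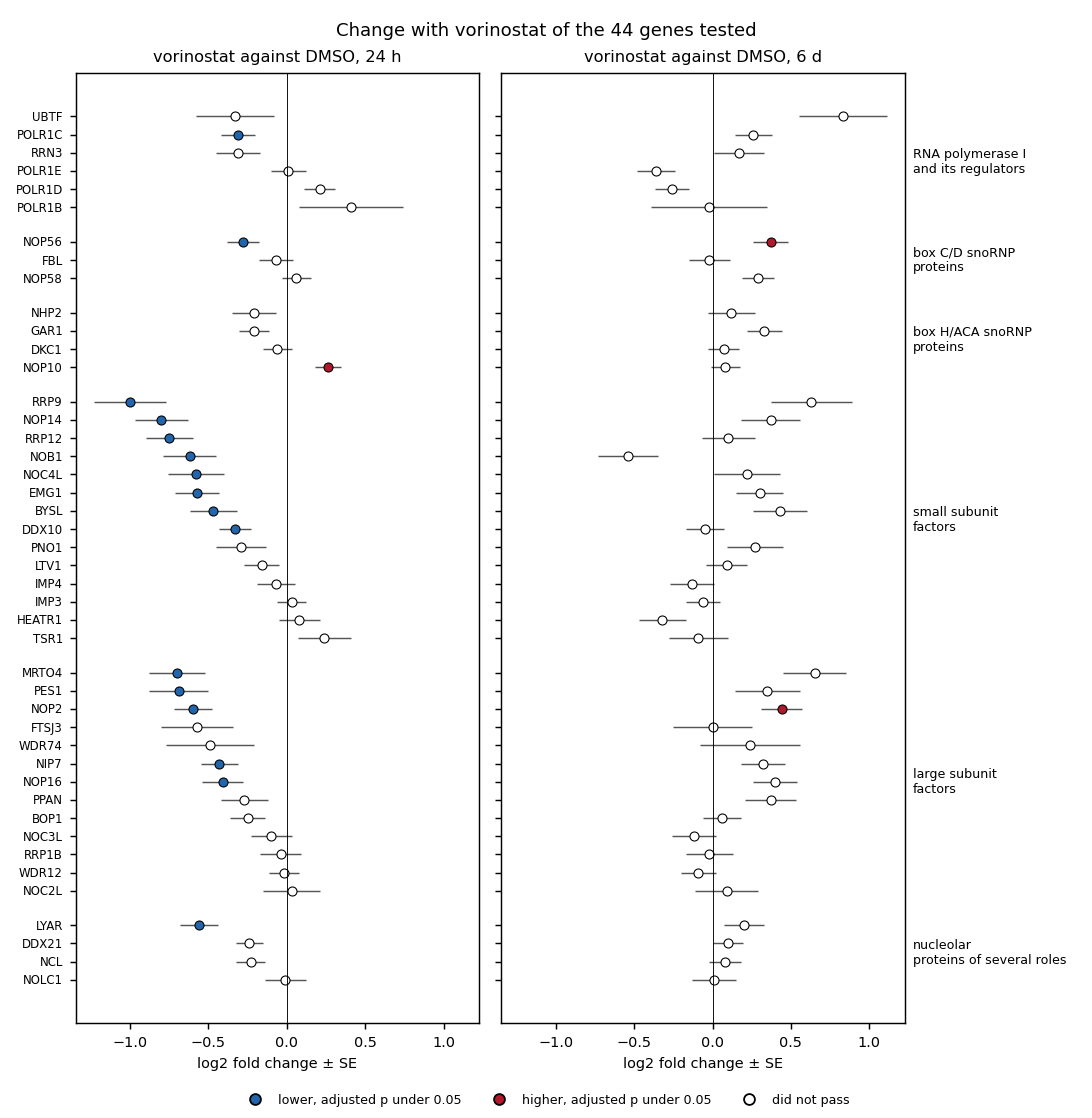
Log2 fold change with vorinostat (x axis, ± SE) of the 44 tested genes, grouped by function, at 24 h (left) and 6 d (right); blue points fell and red points rose at an adjusted p under 0.05. At 24 h 16 points are blue, from -1.0 for *RRP9* to -0.28 for *NOP56*, and at 6 d 2 are red; scaling by the median of all probes left 0 blue points at 24 h and 0 red points at 6 d.

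Among RNA polymerase I and its regulators, 1 of 6 tested genes fell at 24 h, *POLR1C*, and 5 did not pass, with a median of -0.15. *POLR1C*, a subunit that polymerase I shares with polymerase III, read 9.35, 9.24 and 9.39 on the vorinostat 24 h arrays, against 9.69, 9.58 and 9.64 on the DMSO 24 h arrays. All vorinostat values lay below all DMSO values, by -0.31 ± 0.11 (log2 fold change ± SE, adjusted p = 0.0427 by limma), and the difference was 0.41 when arrays were scaled by the median of all probes. This call was lost when any one of the 6 arrays at 24 h was left out. *POLR1D*, also shared with polymerase III, read 11.67, 11.81 and 11.91 with vorinostat and 11.52, 11.54 and 11.72 with DMSO at 24 h. The groups overlapped and the change of 0.21 ± 0.098 did not pass (adjusted p = 0.128 by limma), while with the replicate block it did (0.21 ± 0.073, adjusted p = 0.0491) and a dimmer probe of the gene gave 0.37 (adjusted p = 0.0394).

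*UBTF* encodes the factor that keeps ribosomal DNA open for polymerase I. It read 6.0, 6.2 and 5.87 with vorinostat and 6.71, 6.56 and 5.78 with DMSO at 24 h. DMSO replicate 3 was below all vorinostat arrays, and the change of -0.33 ± 0.25 did not pass (adjusted p = 0.353 by limma), although a dimmer probe of *UBTF* gave -1.01 (adjusted p = 0.00582). *RRN3*, which carries polymerase I to the promoter, read 7.77, 7.74 and 7.77 with vorinostat and 7.89, 8.24 and 8.08 with DMSO. Its groups did not overlap, but -0.31 ± 0.14 did not pass (adjusted p = 0.113 by limma). *POLR1B*, the second largest subunit, read 6.53, 6.35 and 6.15 with vorinostat and 6.03, 6.84 and 4.93 with DMSO, a range among the DMSO arrays that spanned all vorinostat values. The subunit gene *POLR1E* read 9.21, 9.08 and 9.25 with vorinostat and 9.26, 9.04 and 9.21 with DMSO, with a fold change of 0.01 ± 0.11 on the log2 scale.

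Of the 3 box C/D proteins, *NOP56* fell at 24 h and the others did not pass. *NOP56*, a core scaffold protein of the snoRNP, read 11.02, 10.99 and 10.97 with vorinostat and 11.27, 11.21 and 11.33 with DMSO. The groups were apart by -0.28 ± 0.10 (adjusted p = 0.0489 by limma), a call that was lost when any one of the 6 arrays at 24 h was left out and that turned to 0.35 under scaling by the median of all probes. In the fit of single probes the same probe had an adjusted p of 0.0517 by limma. Dimmer probes of *NOP56* gave -0.18 (adjusted p = 0.403) and -0.33 (adjusted p = 0.134) and did not pass. *FBL*, the methyltransferase of the complex, read 11.28, 11.09 and 11.44 with vorinostat and 11.41, 11.1 and 11.51 with DMSO, and *NOP58*, the partner of NOP56, read 11.23, 11.03 and 11.29 with vorinostat and 11.08, 11.05 and 11.24 with DMSO. Both overlapped between groups, with changes of -0.07 ± 0.11 for *FBL* and 0.06 ± 0.091 for *NOP58*.

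Of the 4 box H/ACA proteins, *NOP10* rose at 24 h and 3 did not pass. *NOP10*, the smallest core protein, read 12.77, 12.77 and 12.66 with vorinostat and 12.61, 12.41 and 12.41 with DMSO, a change of 0.26 ± 0.083 (adjusted p = 0.0316 by limma). A dimmer probe of *NOP10* gave 0.20 and did not pass (adjusted p = 0.109 by limma). *GAR1*, another core protein, read 10.89, 10.59 and 10.81 with vorinostat, each below the DMSO values of 11.1, 10.9 and 10.92, and its -0.21 ± 0.096 did not pass (adjusted p = 0.111), although it did with the replicate block (adjusted p = 0.0472). Its dimmer probes gave -0.33 (adjusted p = 0.0399 by limma), -0.34 (adjusted p = 0.089) and 0.05 (adjusted p = 0.837), of which only the first passed. *DKC1*, the pseudouridine synthase, read 11.46, 11.36 and 11.33 with vorinostat and 11.37, 11.64 and 11.34 with DMSO. *NHP2*, which binds the guide RNA, read 12.08, 11.91 and 12.29 with vorinostat and 12.4, 12.16 and 12.36 with DMSO, overlapping groups with -0.21 ± 0.14, while 2 of its 3 dimmer probes passed at -0.45 (adjusted p = 0.0411) and -0.50 (adjusted p = 0.0331).

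The small subunit factors held the most genes that fell, 8 of 14 tested, with a median of -0.40. *RRP9*, a protein of the U3 snoRNP, whose promoter window is shown above, read 5.57, 5.52 and 6.33 with vorinostat and 6.78, 6.91 and 6.73 with DMSO at 24 h. All vorinostat values were below all DMSO values, and the fold was 0.499 (log2 fold change -1.0 ± 0.23, adjusted p = 0.00465 by limma). *NOP14*, a component of the processome that cuts the small subunit RNA, read 7.21, 7.28 and 7.3 with vorinostat and 8.15, 8.14 and 7.88 with DMSO. The 3 vorinostat arrays lay within a narrow band below DMSO, at -0.80 ± 0.17 (adjusted p = 0.00289), while a second probe of similar brightness gave -0.32 and did not pass (adjusted p = 0.122). The call of *NOP14* was lost without DMSO 24 h replicate 1, 2 or 3, DMSO 6 d replicate 2 or vorinostat 6 d replicate 2. The brightest probe was chosen anew in each such fit, and both probes had a mean of 7.61. Whether the other probe then stood for *NOP14* was not tested. *RRP12*, a factor of subunit export and maturation, read 6.97, 6.88 and 7.27 with vorinostat and 7.69, 7.84 and 7.85 with DMSO, a separation of -0.75 ± 0.15 (adjusted p = 0.00197).

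*NOB1* is the nuclease that makes the final cut of the 18S RNA. It read 6.81, 6.61 and 6.64 with vorinostat and 7.31, 7.04 and 7.56 with DMSO at 24 h. The groups did not overlap, and -0.62 ± 0.17 passed (adjusted p = 0.0113 by limma), though not without DMSO 24 h replicate 3 or vorinostat 24 h replicate 2. *BYSL*, which acts late on the same precursor, read 8.74, 8.45 and 8.88 with vorinostat and 9.18, 8.95 and 9.34 with DMSO, all lower, at -0.47 ± 0.15 (adjusted p = 0.0272, lost without DMSO replicate 1 or 3 or vorinostat replicate 1 or 2). *EMG1*, a methyltransferase of the 18S RNA, read 9.35, 9.23 and 9.43 with vorinostat and 9.98, 9.89 and 9.84 with DMSO, apart by -0.57 ± 0.14 (adjusted p = 0.00599). The factors *NOC4L* and *DDX10* also fell, by 0.58 and 0.33 on the log2 scale, and differed by 0.15 and 0.40 when arrays were scaled by the median of all probes. Under that scaling *NOB1*, *BYSL* and *EMG1* had differences of 0.11, 0.26 and 0.14, whereas *RRP9* had -0.37, *NOP14* -0.06 and *RRP12* -0.02. The 6 small subunit factors that did not pass ranged from -0.29 for *PNO1* to 0.24 for *TSR1*.

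Of the large subunit factors, 5 of 13 fell at 24 h, with a median of -0.41. *NOP2*, a methyltransferase of the 28S RNA and an old marker of proliferating nucleoli, read 8.56, 8.61 and 8.77 with vorinostat and 9.31, 9.16 and 9.27 with DMSO. This was -0.60 ± 0.12 without overlap (adjusted p = 0.00146 by limma), and its 2 dimmer tested probes gave -0.80 and -1.07. *MRTO4*, which holds the place of the stalk on the growing subunit, read 7.71, 7.15 and 7.26 with vorinostat and 8.28, 8.15 and 7.8 with DMSO, apart by -0.70 ± 0.18 (adjusted p = 0.0087). *PES1*, a member of the PeBoW complex, read 7.53, 7.08 and 7.62 with vorinostat and 8.19, 8.14 and 7.96 with DMSO, apart by -0.69 ± 0.19 (adjusted p = 0.012). Vorinostat 24 h replicate 2 was the lowest array for both *MRTO4* and *PES1*, and both calls were lost without it. With scaling by the median of all probes *NOP2* differed by 0.12, *MRTO4* by 0.03 and *PES1* by 0.05. *NIP7* and *NOP16* fell by 0.43 and 0.41 on the log2 scale, against differences of 0.27 and 0.30 under that scaling. The partners of PES1 did not pass, with -0.25 for *BOP1* and -0.02 for *WDR12*.

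Of 4 tested nucleolar proteins of several roles, *LYAR* fell at 24 h and 3 did not pass. *LYAR*, a nucleolar zinc finger protein, read 9.79, 9.62 and 9.79 with vorinostat and 10.29, 10.34 and 10.25 with DMSO, apart by -0.56 ± 0.12 (adjusted p = 0.00217 by limma), and it differed by 0.11 under scaling by the median of all probes. *DDX21*, a helicase that binds ribosomal DNA and snoRNAs, read 11.13, 11.11 and 11.12 with vorinostat and 11.34, 11.48 and 11.25 with DMSO. Its groups did not overlap, yet -0.24 ± 0.087 did not pass (adjusted p = 0.0528), although it did with the replicate block (adjusted p = 0.0340). Under scaling by the median of all probes the difference was 0.38. *NCL*, the abundant chaperone nucleolin, read 12.41, 12.31 and 12.54 with vorinostat and 12.61, 12.75 and 12.58 with DMSO, a gap of -0.23 ± 0.093 (adjusted p = 0.0793).

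Among 13 named genes that passed at 24 h, 5 kept their call with each of the 11 arrays left out in turn, namely *RRP12*, *RRP9*, *NOP2*, *LYAR* and *EMG1*.

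**Figure D2:**
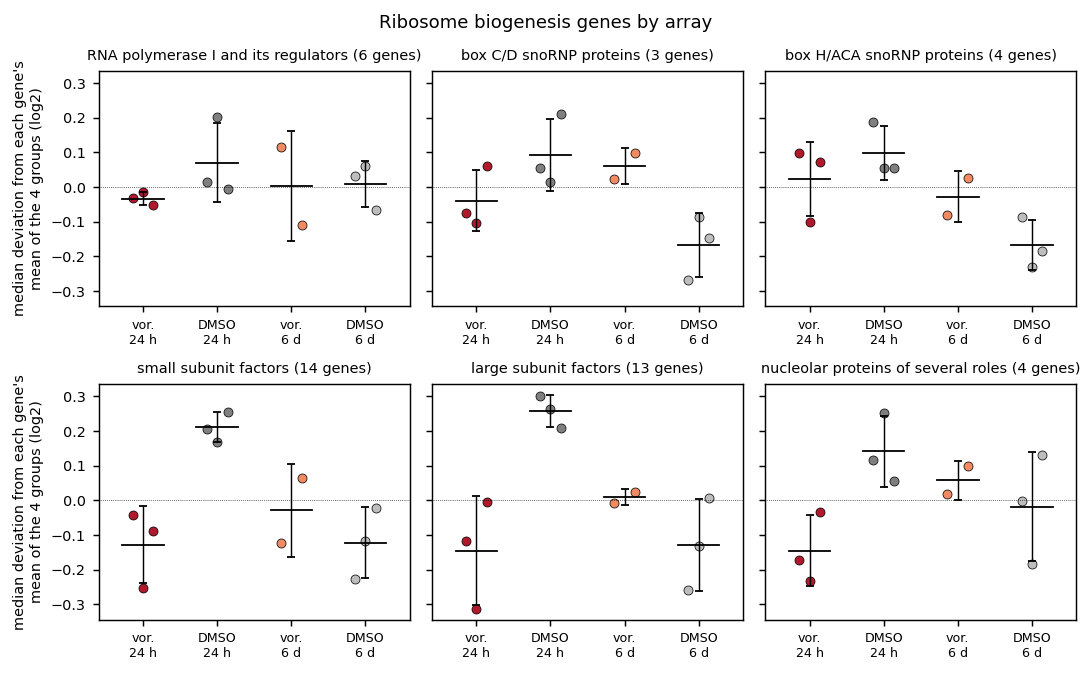
Median over the tested genes of each functional group of the deviation from each gene's mean of the 4 groups (log2, y axis), by array, with the mean (line) and SD (bar) of vorinostat (vor.) and DMSO arrays at 24 h and 6 d. Small subunit factors lay at -0.253 to -0.042 with vorinostat and 0.169 to 0.255 with DMSO at 24 h, and large subunit factors at -0.313 to -0.004 with vorinostat and 0.208 to 0.302 with DMSO, in the quantile-normalized values. Under scaling by the median of all probes the median change of the 44 genes with vorinostat was 0.42 at 24 h and -0.14 at 6 d.

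After 6 d of vorinostat, 2 of the 44 genes rose, *NOP56* and *NOP2*, and 42 did not pass. Of all genes 3.93% were higher and 6.92% lower. No gene of the 44 was lower by limma after adjustment, against 4 at an unadjusted p under 0.05 (15.2% of all genes). The analysis of variance of the methods found 0 lower after Benjamini-Hochberg adjustment and 2 before it (0% and 9.05% of all genes). At an unadjusted p under 0.05, 11 of the 44 genes were higher (10.6% of all genes). The median was 0.10, against -0.02 for all genes, and it turned to -0.14, against -0.31 for all genes, when arrays were scaled by the median of all probes. For 12 genes both vorinostat arrays lay above all 3 DMSO arrays (16.9% of all genes) and for 4 below them (21.7%). The calls of *NOP56* and *NOP2* lay just under the threshold and were lost with only the 6 d groups in the fit. They were also lost without single arrays of either time. Both were kept without DMSO 24 h replicate 2 or DMSO 6 d replicate 3, *NOP56* alone was kept without DMSO 6 d replicate 2, and neither was kept without any one of the other 8 arrays. Other genes passed in some of these fits, so that 0 to 4 genes rose with one array of a group of 3 left out. The 4 rose without DMSO 6 d replicate 3 (5.27% of all genes).

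*NOP56* read 11.13 and 11.35 on the vorinostat 6 d arrays, against 10.65, 11.01 and 10.95 on the DMSO 6 d arrays. Both vorinostat values were above all DMSO values, by 0.37 ± 0.11 (adjusted p = 0.0437 by limma). *NOP2* read 9.27 and 9.32 with vorinostat and 8.77, 8.7 and 9.09 with DMSO, a rise of 0.44 ± 0.13 without overlap (adjusted p = 0.0432). *MRTO4*, at 8.11 and 8.38 with vorinostat and 7.38, 7.54 and 7.88 with DMSO, had the same order of arrays and a larger fold, 1.57, with an adjusted p of 0.051.

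Among polymerase I genes, *UBTF* read 6.55 and 5.87 with vorinostat and 5.59, 5.4 and 5.17 with DMSO at 6 d. Both vorinostat arrays were higher but differed from each other by more than the DMSO arrays did, and 0.83 ± 0.28 did not pass (adjusted p = 0.0701 by limma). *POLR1C* read 9.31 and 9.66 with vorinostat and 9.31, 9.12 and 9.23 with DMSO, and *RRN3* read 8.18 and 8.17 with vorinostat and 8.25, 7.97 and 7.8 with DMSO. *POLR1D* and *POLR1E* had the opposite sign, with 11.86 and 11.71 with vorinostat and 12.01, 12.21 and 11.93 with DMSO for *POLR1D*. *POLR1E* read 8.82 and 8.94 with vorinostat and 9.11, 9.35 and 9.27 with DMSO. Neither gene overlapped between groups, and the changes of -0.26 ± 0.11 for *POLR1D* and -0.36 ± 0.12 for *POLR1E* did not pass (adjusted p = 0.138 and 0.0719). *POLR1B* was at 6.53 and 6.06 with vorinostat and 6.3, 6.38 and 6.28 with DMSO.

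The other snoRNP proteins did not pass at 6 d. *NOP58* read 11.03 and 11.07 with vorinostat and 10.76, 10.71 and 10.81 with DMSO, and *GAR1* read 10.89 and 10.87 with vorinostat and 10.49, 10.58 and 10.58 with DMSO. Both were apart without overlap, at 0.29 ± 0.10 for *NOP58* (adjusted p = 0.0791 by limma) and 0.33 ± 0.11 for *GAR1* (adjusted p = 0.0576). *FBL* at 11.4 and 11.47 with vorinostat and 11.31, 11.49 and 11.56 with DMSO overlapped, as did *DKC1* at 11.37 and 11.32 with vorinostat and 11.33, 11.32 and 11.18 with DMSO. Overlap was also seen for *NHP2*, 11.99 and 12.37 with vorinostat and 12.09, 11.77 and 12.32 with DMSO. *NOP10* read 12.29 and 12.43 with vorinostat and 12.36, 12.22 and 12.28 with DMSO, so the gene that was higher at 24 h was at 0.08 ± 0.093 here.

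Among the subunit factors, *NOB1* stood apart at 6 d with 7.16 and 7.18 with vorinostat and 7.58, 7.6 and 7.94 with DMSO, the lowest fold change of the 44 genes (-0.54 ± 0.19, adjusted p = 0.074 by limma). *RRP9* read 6.29 and 6.89 with vorinostat and 6.03, 5.71 and 6.15 with DMSO, and *BYSL* read 8.97 and 9.38 with vorinostat and 8.56, 8.78 and 8.92 with DMSO. Both were higher on each vorinostat array and did not pass, with adjusted p of 0.134 for *RRP9* and 0.113 for *BYSL*. *NOP14* read 7.83 and 7.72 with vorinostat and 6.96, 7.67 and 7.59 with DMSO. *RRP12* read 7.24 and 7.55 with vorinostat and 7.16, 7.43 and 7.29 with DMSO, and *PES1* read 7.66 and 7.84 with vorinostat and 6.97, 7.53 and 7.7 with DMSO. The first of these was separate between groups and the others overlapped. *LYAR*, at 10.0 and 10.25 with vorinostat and 9.87, 9.73 and 10.17 with DMSO, and *DDX21*, at 11.14 and 11.21 with vorinostat and 11.18, 11.02 and 11.02 with DMSO, differed by 0.20 ± 0.13 and 0.10 ± 0.097. *NCL* read 12.61 and 12.55 with vorinostat and 12.54, 12.33 and 12.65 with DMSO.

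**Figure D3:**
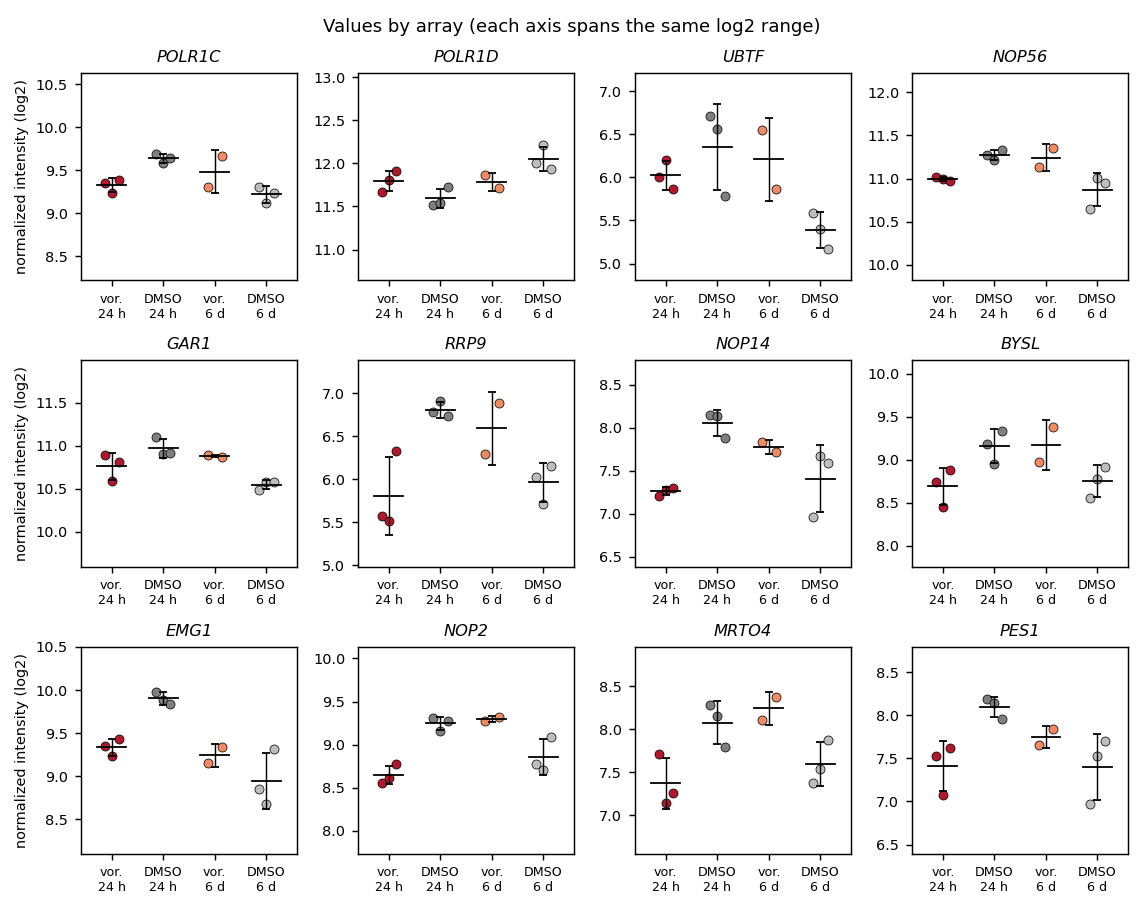
Normalized intensity (log2, y axis) of 12 genes on each array, with the mean (line) and SD (bar) of vorinostat (vor.) and DMSO arrays at 24 h and 6 d; each axis spans the same range. *NOP2* reads 8.56 to 8.77 with vorinostat and 9.16 to 9.31 with DMSO at 24 h, and 9.27 to 9.32 with vorinostat and 8.7 to 9.09 with DMSO at 6 d; with arrays scaled by the median of all probes its difference at 24 h was 0.12.

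The change with vorinostat at 6 d minus that at 24 h tested whether the effects of both times differed. It was above 0 for 17 of the 44 genes and below 0 for 1, and 26 did not pass (limma, adjusted p under 0.05), whereas of all genes 12.2% were above and 18.6% below. The median difference of the 44 genes was 0.34, against -0.07 for all genes, and -0.52 against -0.97 when arrays were scaled by the median of all probes, so the sign turned while the 44 genes stayed above all genes. It was *RRP9* that differed most, by 1.63 ± 0.35 (adjusted p = 0.00238 by limma), followed by *MRTO4* by 1.35 ± 0.27 (adjusted p = 0.0015). Next were *NOP14* by 1.17 ± 0.26 (adjusted p = 0.00303) and *UBTF* by 1.15 ± 0.38 (adjusted p = 0.0286). The probes of *RRP9* and *UBTF* were dim, with means of 6.26 and 5.97. *NOP2* had the smallest adjusted p (1.05 ± 0.18, adjusted p = 0.000411), but with scaling by the median of all probes its difference was -0.0012. *POLR1D* was the gene below 0, at -0.47 ± 0.15 (adjusted p = 0.0237), and it was lost without DMSO 24 h replicate 1, vorinostat 24 h replicate 3 or vorinostat 6 d replicate 3. By group, 6 of 14 small subunit factors, 6 of 13 large subunit factors, 2 of 6 polymerase I genes, 1 of 3 box C/D proteins, 1 of 4 box H/ACA proteins and 1 of 4 nucleolar proteins of several roles were above 0. With one array left out at a time, 13 to 17 of the 44 genes were above 0. Of 15 named genes that passed, 8 kept their call in each such fit, namely *NOP56*, *GAR1*, *RRP9*, *NOP2*, *MRTO4*, *PES1*, *LYAR* and *EMG1*. The call of *UBTF* was lost without any one of 6 arrays (DMSO 24 h replicate 1 or 2, vorinostat 24 h replicate 1 or 3, DMSO 6 d replicate 3 or vorinostat 6 d replicate 2) and in the table normalized by the authors. That of *NOP14* was lost in the same 5 fits as its call at 24 h, in which its other probe may have stood for the gene. *NOB1* differed by 0.08 ± 0.25 between the times and was lower on each vorinostat array at both.

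The solvent cultures themselves differed between the times. In DMSO 6 d against DMSO 24 h, 22 of the 44 genes fell, 1 rose and 21 did not pass (limma, adjusted p under 0.05), against 13.0% of all genes lower and 17.1% higher. The median was -0.31, against 0.03 for all genes, and 0.08 against 0.41 when arrays were scaled by the median of all probes. All 3 DMSO 6 d arrays were below all 3 DMSO 24 h arrays for 24 genes (18.3% of all genes) and above them for 2 (22.1%). These groups lay on separate chips, so time in culture and chip cannot be told apart, and each shares its arrays with one of the comparisons above. The count that fell was 12 without DMSO 24 h replicate 1 (8.99% of all genes). It was 11 without DMSO 6 d replicate 1 (9.35%) or without DMSO 6 d replicate 2 (9.95%). Without DMSO 24 h replicate 2 (14.9%) or without DMSO 24 h replicate 3 (15.5%) 2 genes rose.

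*EMG1* read 8.85, 8.68 and 9.31 on the DMSO 6 d arrays, against 9.98, 9.89 and 9.84 on the DMSO 24 h arrays. It was separate at -0.96 ± 0.14 (adjusted p = 0.000109 by limma), and at 6 d the vorinostat arrays, at 9.15 and 9.34, overlapped DMSO. *PPAN*, a large subunit factor, read 6.83, 6.79 and 7.05 with DMSO at 6 d and 7.71, 7.88 and 7.53 with DMSO at 24 h, lower by -0.82 ± 0.15 (adjusted p = 0.00068). *POLR1D* rose, with 12.01, 12.21 and 11.93 with DMSO at 6 d and 11.52, 11.54 and 11.72 with DMSO at 24 h, at 0.45 ± 0.098 (adjusted p = 0.00266). *PPAN* with vorinostat was at 7.57, 7.37 and 7.39 at 24 h and at 7.28 and 7.25 at 6 d, and it did not pass against DMSO at either time (log2 fold changes -0.27 and 0.37).

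Side by side, *RRP9* had a log2 fold change of -1.0 with vorinostat at 24 h, 0.63 with vorinostat at 6 d and -0.85 between the solvent groups, and *NOP2* had -0.60, 0.44 and -0.40 in the same order. For *NOP56* these were -0.28, 0.37 and -0.40, and for *UBTF* -0.33, 0.83 and -0.96. *FBL*, *DKC1*, *WDR12* and *NOLC1* ranged between -0.09 and 0.07 in both vorinostat comparisons. The DMSO 24 h arrays enter the 24 h and the solvent values and the DMSO 6 d arrays the 6 d and the solvent values, so the values are not independent of each other.

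**Figure D4:**
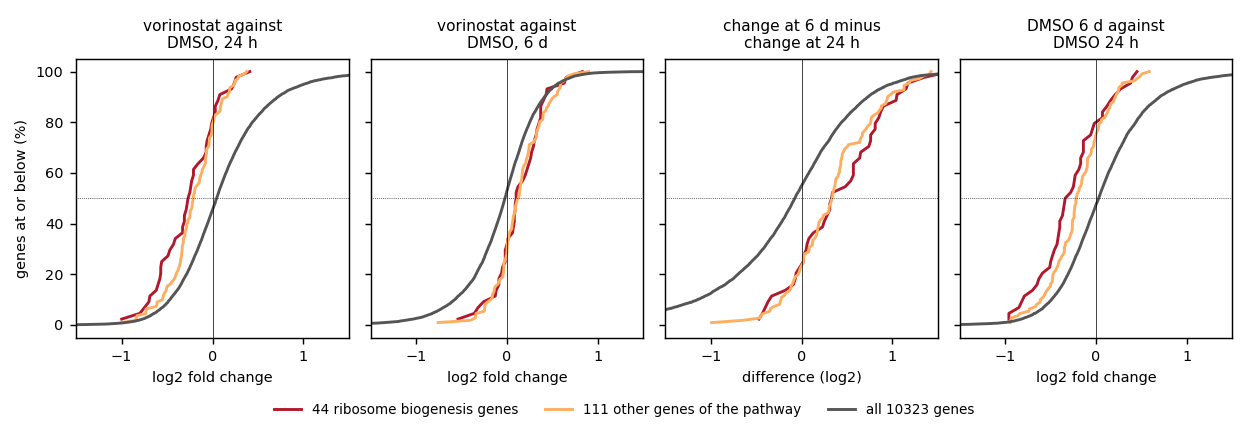
Share of genes (y axis, %) at or below each log2 fold change or difference (x axis) in 4 comparisons, for the 44 ribosome biogenesis genes, 111 other genes of the pathway and all 10323 genes. The median of the 44 genes lies at -0.26, 0.10, 0.34 and -0.31 from left to right and that of all genes at 0.04, -0.02, -0.07 and 0.03; with scaling by the median of all probes the medians of the 44 genes were 0.42, -0.14, -0.52 and 0.08 and those of all genes 0.66, -0.31, -0.97 and 0.41.

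A wider list of ribosome biogenesis genes outside the 54 held 116 genes on the array, of which 111 were tested. With vorinostat 26 fell and 0 rose at 24 h (11.1% and 16.5% of all genes), with a median log2 fold change of -0.21, and 0 fell and 10 rose at 6 d (6.92% and 3.93% of all genes), with a median of 0.13, medians that turned to 0.48 and -0.20 when arrays were scaled by the median of all probes. The count that fell was 15 without DMSO 24 h replicate 1 or without vorinostat 24 h replicate 2, and the count that rose at 6 d was 2 without either vorinostat 6 d array, 6 without DMSO 6 d replicate 1 and 16 without DMSO 6 d replicate 3. With array brightness as a covariate 0 fell at 24 h and 1 rose at 6 d (0.0291% and 0.378% of all genes). At an unadjusted p under 0.05, 1 of the 111 was higher at 24 h (2352 of all 10323 genes) and 6 were lower at 6 d (15.2% of all genes). The genes of this list named here were picked after their values were seen. *DHX37*, a helicase that removes the U3 snoRNA, fell by 0.84 at 24 h (adjusted p = 0.000109 by limma) and rose by 0.59 at 6 d (adjusted p = 0.0104). *NOL12* fell by 0.85 and rose by 0.55, and *UTP14A*, a cofactor of DHX37, fell by 0.54 and rose by 0.59, although it differed by 0.19 at 24 h when arrays were scaled by the median of all probes. *EIF6*, which keeps the large subunit from joining too early, fell by 0.73 at 24 h (adjusted p = 0.000217), and its 0.40 at 6 d did not pass (adjusted p = 0.0554). The difference between the times was above 0 for 29 of the 111 genes and below 0 for 1, against 12.2% of all genes above and 18.6% below. Between the solvent groups 29 were lower and 2 higher at 6 d, against 13.0% of all genes lower and 17.1% higher, and without DMSO 6 d replicate 1 the count that was lower was 18. With array brightness as a covariate none of the 111 genes passed in the difference (0.0678% of all genes above 0 and 0.397% below). Between the solvent groups 11 were lower and 1 higher in that fit, against 5.26% and 8.17% of all genes.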

How the data were processed

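RNA of 11 cultures was hybridized to human HT-12 v4 BeadChips. The authors deposited raw bead intensities and detection p-values per probe, and an intensity table normalized by the authors in BeadStudio (per the submitters' processing notes), which served as an alternative. Raw values were paired with the named probes of that table by their log2 values after mapping each array's distribution (48107 of 48107 probes, each the best match of the other, 2.6607% after shuffling), and 30113 probes carried 1 gene, 8 several and 17986 none. No signal depth is given for arrays, and their number limits the precision.

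Intensities were background-corrected by normexp with the detection p-values (offset 16), quantile normalized and log2 transformed. A probe was kept if, on every array of at least 1 group, its detection p was under 0.01 and its intensity above the array's background (17052 probes), and the brightest probe stood for a gene. One limma 3.58.1 model (R 4.3.3, lmFit and eBayes with trend) was fitted to the 4 groups, with Benjamini-Hochberg adjustment over 10323 genes and a threshold of 0.05. It was tested on simulated data. Values given for dimmer or second probes came from the same model fitted to all named probes that passed the filter, with adjustment over those probes. The members and gene lists were chosen with earlier results of these data known. Values per array are given for polymerase I subunits with *RRN3* and *UBTF*, the snoRNP core proteins, in each other functional group the 3 genes with the smallest adjusted p at 24 h and the 2 at 6 d, and the 3 with the smallest adjusted p between solvent groups.

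Titles gave the groups and the replicate numbers. Another label numbers 2 of the 6 d arrays as 1 (vorinostat replicate 2 and DMSO replicate 3), and a vorinostat 6 d replicate 1 array was not used here. Residuals of same-numbered arrays at 24 h correlated at 0.109, 0.195 and 0.246 (other pairs at -0.207 to 0.0297), so the numbers were taken to pair the arrays at 24 h. Replicates shared at most 0.0333% identical values (r across probes of 0.979 to 0.993). Promoter windows were matched by symbol to a RefSeq table (46 of 54 genes), and figures were drawn with Matplotlib 3.10.9 under Python 3.11.15. Alternatives were another scaling, the normalized table, the background correction, offset, filters, probe choice, a replicate block, no trend, array brightness as a covariate, only the groups compared, the analysis of variance of the methods, and each array left out in turn.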

Additional observations from a re-analysis of the deposited data

Results flagged for a closer look

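In 18 of the 44 tested genes the change with vorinostat differed between 6 d and 24 h by the test of that difference (limma, Benjamini-Hochberg adjusted p under 0.05). Of the 44 genes 17 were above 0 and 1 was below 0, against 12.2% and 18.6% of all genes. The values are the log2 change at 6 d minus that at 24 h. Among small subunit factors this was 1.63 for *RRP9*, 1.17 for *NOP14*, 0.90 for *BYSL*, 0.87 for *EMG1*, 0.85 for *RRP12* and 0.81 for *NOC4L*. Large subunit factors had 1.35 for *MRTO4*, 1.05 for *NOP2*, 1.04 for *PES1*, 0.81 for *NOP16*, 0.76 for *NIP7* and 0.64 for *PPAN*. The RNA polymerase I genes with such a difference were *UBTF* at 1.15, *POLR1C* at 0.57 and *POLR1D* at -0.47. The others were *LYAR* at 0.76, *NOP56* at 0.65 and *GAR1* at 0.54. With arrays scaled by the median of all probes *RRP9* kept its sign at 0.65, *MRTO4* at 0.27, *UBTF* at 0.16 and *NOP14* at 0.07. *POLR1D* kept it at -1.26, and the sign of all the other genes named in this paragraph turned. The 24 h groups lay on separate chips and the 6 d groups on one, and the part of the chips in these differences was not tested. No group held 4 arrays, so no array was tested for standing apart from its group.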

How the results depend on the processing

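The direction of the named genes that passed held under the alternatives run, with the exception of the scaling by the median of all probes. Among results of named genes that did not pass, the sign turned in 37 of 1349 values under the other alternatives, in 17 results, such as *POLR1B* at 24 h, with a lowest value of -0.09. That scaling moved the median of all genes to 0.66 at 24 h, -0.31 at 6 d, -0.97 in the difference and 0.41 between the solvent groups. Most probes are dim, so this median sits near the background. This scaling turned the sign in 24 of 46 results of named genes that passed in the main analysis and in 34 of 58 that did not. Some passed in neither, such as *RRN3* at 0.42, *UBTF* at 0.32 and *PPAN* at 0.47 at 24 h. The values that follow are of results that turned under this scaling and passed in the main analysis or under it. With vorinostat against DMSO at 24 h it turned the log2 fold change to 0.41 for *POLR1C*, 0.52 for *FBL*, 0.35 for *NOP56*, 0.55 for *DKC1*, 0.35 for *NHP2*, 0.43 for *GAR1*, 0.11 for *NOB1*, 0.26 for *BYSL*, 0.12 for *NOP2*, 0.03 for *MRTO4*, 0.05 for *PES1*, 0.11 for *LYAR*, 0.38 for *DDX21*, 0.37 for *NCL* and 0.14 for *EMG1*. In the change at 6 d minus that at 24 h it gave -0.47 for *POLR1C*, -0.75 for *FBL*, -0.20 for *NOP56*, -0.61 for *NOP58*, -0.69 for *DKC1*, -0.34 for *GAR1*, -0.23 for *RRP12*, -1.0 for *NOB1*, -0.18 for *BYSL*, -0.0012 for *NOP2*, -0.06 for *PES1*, -0.21 for *LYAR*, -0.50 for *NCL*, -0.17 for *EMG1* and -0.47 for *PPAN*. In DMSO 6 d against DMSO 24 h it gave 0.02 for *POLR1C*, 0.05 for *BYSL*, 0.06 for *NOP2*, 0.03 for *LYAR* and 0.07 for *DDX21*. Under this scaling 0 of the 44 genes fell and 22 rose at 24 h, 3 fell and 0 rose at 6 d, 21 were below and 0 above 0 in the difference, and 1 fell and 9 rose between the solvent groups. Of all genes, 0.581% fell and 67.4% rose at 24 h there, and 15.4% fell and 0.533% rose at 6 d. In the difference 66.2% of all genes were below and 0.872% above 0, and between the solvent groups 1.16% fell and 39.3% rose. The median over probes detected on all arrays, chosen after seeing the data, gave 20 that fell and 0 that rose at 24 h, 5 that rose at 6 d and 0 below 0 in the difference. The shares of all genes were 17.1%, 12.4%, 4.94% and 13.8% in the same order.

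At 24 h, the number that fell was 0 with array brightness as a covariate (0.0291% of all genes) and 7 with the analysis of variance of the methods after adjustment (7.23%). It was 6 to 17 with one array of a group of 3 left out (6.44% to 12.1%). The number that rose at 24 h was 0 with no filter (6.57% of all genes), without trend (15.7%), with brightness (0.446%) or by that analysis of variance (11.2%). It was 2 with the mean of all probes (17.3%) and 0 to 1 with one array of a group of 3 left out (11% to 17.3%). At 6 d the number that fell was 1 in the authors' normalized table (7.63% of all genes) and 2 by the unadjusted analysis of variance (9.05%). It was 0 with any one array of a group of 3 left out (3.93% to 7.87%). The number that rose at 6 d was 4 in the authors' table (4.06%). It was 0 with no filter (1.14%), without trend (2.84%), with brightness (0.378%), with only the groups compared (1.31%) or by the adjusted analysis of variance (0%). With one array of a group of 3 left out 0 to 4 rose (1.67% to 5.27%). In the difference the number below 0 was 0 with no filter (7.53% of all genes), without trend (17.5%) or with brightness (0.397%). It was 0 to 1 with one array of a group of 3 left out (15% to 19.1%). The number above 0 was 0 with brightness (0.0678%) and 13 to 17 with one array of a group of 3 left out (9.08% to 12.8%). Between the solvent groups the number that fell was 13 with no filter (4.98% of all genes), 5 with brightness (5.26%) and 0 by the adjusted analysis of variance (1.82%). It was 11 to 23 with one array of a group of 3 left out (8.99% to 13.1%). The number that rose was 0 by that analysis of variance (3.25%) and 1 to 2 with one array of a group of 3 left out (12.8% to 17.1%). With one array left out of a pair, the lone array is assumed to vary like the others. The cause of these shifts was not tested.

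With the replicate number as a block, 19 genes fell and 2 rose at 24 h (13.6% and 18.9% of all genes). At 6 d 1 fell and 2 rose (5.88% and 3.21%), where *NOP56* (adjusted p = 0.118 by limma) and *NOP2* (adjusted p = 0.0636) no longer passed and the genes called were other ones. In the difference 2 were below and 18 above 0 (18.5% and 12.7%). The pairing could not be applied between the solvent groups. At 6 d same-numbered arrays correlated at 0.0846 and 0.10 and other pairs at -0.10 to 0.0123, and there the numbers were not taken to pair the arrays. Of the named genes called, 254 of 325 results at 24 h, 16 of 50 at 6 d, 268 of 330 in the difference and 300 of 384 between the solvent groups kept direction and call. With 2 or 3 arrays a group, a change that did not pass is not shown to be absent, and the spread covers these cultures of one cell line.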
